A study of Mus musculus with 9 samples.

Results

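The response of mouse macrophages to interleukin-27 was measured by comparing 3 libraries of polyA RNA from IL-27-treated cells with 3 libraries from untreated cells, which are 6 of the 9 libraries of the series. All genes of the deposited count table were considered: 16200 genes were listed and 12587 had enough reads to be tested. The cells were wild-type bone marrow-derived macrophages grown for 6 days in medium with L929 cell supernatant, a source of macrophage colony-stimulating factor. The treated cells received IL-27 at 100 ng/ml for 6 hours. The remaining 3 libraries came from cells given IL-4 at 20 ng/ml for 12 hours, so the 2 cytokines differ in both dose and time. The treatment text of the labels is the same for all samples and does not say whether cells given IL-27 also received IL-4. The libraries are described as replicate experiments, but nothing states separate animals or cultures. The p-values therefore reflect library-to-library spread alone, and this may be technical.

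IL-27 is a heterodimer of EBI3 and p28 that is made by activated antigen-presenting cells. It binds a receptor built from Il27ra and the shared chain Il6st (gp130), which act through JAK kinases on STAT transcription factors. STAT dimers bind the palindromic GAS element, and complexes that contain IRF9 bind the interferon-stimulated response element (ISRE). SOCS proteins, which are STAT targets, feed back on the kinases.

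Library totals ran from 34577188 to 37951827 counts. Genes with at least 1 count numbered 14001 to 14326 per library. Values are in CPM, counts scaled to a common library size with TMM factors, and a gene was called when the adjusted p of edgeR's quasi-likelihood test was under 0.05. Untreated replicate 2 stood apart from the other untreated libraries. Its chi-square per gene was 95 and 97.3 against them, where the other pair gave 5.45 and IL-27 pairs 5.66 to 6.8. The difference went with base composition, and IL-4 replicate 1 deviated from its group in a like way (correlation 0.9 over 9553 genes). For the 1231 genes of lowest GC content the median log2 difference between IL-27 and untreated was 0.23, for the 1232 genes of highest GC content -0.16, and without untreated replicate 2 the same medians were 0.05 and -0.03. Sums of cell type markers, here and below, are in CPM on library totals, without TMM factors. Summed macrophage markers held 24817 to 29973 CPM in untreated and 24642 to 26752 CPM in IL-27 libraries. The T-cell markers Cd3d and Cd8a, the neutrophil markers Retnlg and Elane and the eosinophil markers Prg2 and Ear1 were at 0 in all 6 libraries. Neutrophil markers summed to 4.48 to 5.66 CPM in untreated and 8.14 to 9.39 CPM in IL-27 libraries, and T and NK cell markers to 9.28 to 12.2 and 13 to 13.8 CPM. In RNA from whole cultures, fewer cells of a type and less RNA per cell cannot be told apart.

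After 6 hours of IL-27, 3670 genes were called (29.2% of those tested): 1766 were higher (14%) and 1904 lower (15.1%). Counts of list members given below are read beside these shares, and a list near them did not stand out from all tested genes. The median log2 difference over all tested genes was 0.00. Of the calls, 585 were at least 2-fold higher (4.65% of tested genes) and 661 at least 2-fold lower (5.25%), together 1246 (9.9%). Among larger changes, 59 genes were at least 8-fold higher and 43 at least 8-fold lower, and 31 against 14 passed 16-fold. The genes with the largest increases included Iigp1, Tgtp2, Gbp2, Hcar2, Acod1 and Trib3, and those with the largest decreases Hpgd, Chil3, Zfyve28 and Ccnb2. The values of the 3 libraries of a group did not overlap with those of the other group in 3295 genes in the direction of higher (26.2%) and 3270 in the direction of lower (26.0%). Without untreated replicate 2, 3381 genes were called, of which 3036 (82.7% of the 3670) were the same genes. No gene called in both fits changed its direction.

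**Figure D1:**
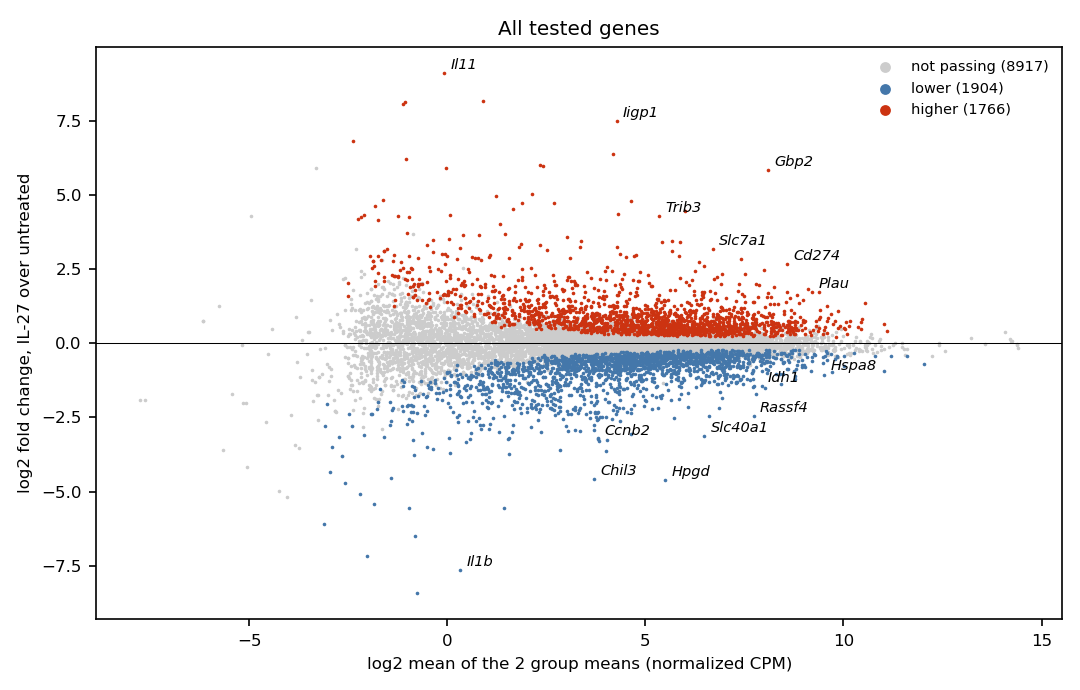
Log2 fold change of IL-27 against untreated (vertical axis) against the log2 of the mean of both groups' mean CPM (horizontal axis) for the tested genes, with 1766 genes called higher in red, 1904 called lower in blue and the rest in grey. Labelled genes at the top include Il11, Iigp1 and Gbp2, and those at the bottom Il1b, Hpgd and Chil3; 1 gene with no count in these 6 libraries is not drawn.

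The receptor chains themselves changed little, whereas the feedback inhibitors Socs1 and Socs3 rose. Of 9 tested genes of the IL-27 pathway, 3 were higher and 1 lower (median log2 0.11). Il27ra, the private receptor chain, was low in all libraries, at 3.28, 4.07 and 2.40 CPM untreated and 2.40, 3.03 and 3.04 CPM with IL-27, and did not pass the test (edgeR adjusted p = 0.534). Il6st, the signalling chain shared with IL-6, stood at 155, 169 and 155 CPM against 157, 156 and 160 CPM (edgeR adjusted p = 0.878). For both chains the groups overlapped.

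Stat3, a main STAT of the receptor, was 1.31-fold higher (edgeR adjusted p = 0.0495), and that call was lost in 9 of the 18 alternative analyses. The kinase Jak1 was 1.30-fold higher (edgeR adjusted p = 0.00388), while Jak2 and Tyk2 were not called. Stat2, which acts in interferon signalling, was 1.43-fold higher. Ebi3, a subunit of IL-27 itself, was 1.70-fold lower.

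Among 18 feedback genes of cytokine signalling, 3 were higher and 4 lower (median log2 0.03). Socs3, which blocks gp130 receptors, was at 3.34, 3.67 and 4.32 CPM in untreated and 15.8, 14.8 and 14 CPM in IL-27 libraries, 3.93-fold higher (edgeR adjusted p = 1.87e-05). Socs1, an inhibitor of JAK kinases in interferon signalling, rose 3.65-fold, from 1.95, 1.90 and 3.24 CPM to 9.08, 8.77 and 8.07 CPM (edgeR adjusted p = 0.000125). The groups did not overlap for Socs1 or Socs3. Cish, of the same family, was among the lower genes, with 39, 27 and 24 counts in untreated and 8, 5 and 9 with IL-27.

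The guanylate-binding proteins and immunity-related GTPases, interferon-induced enzymes that attack the vacuoles of intracellular pathogens, rose almost without exception. Of 24 genes listed, 18 were in the table and 16 were tested, and of these 15 were higher and none lower, and the median log2 difference was 3.93 against 0.00 over all genes. The exception was Irgq, at log2 0.13. Near-identical copies in this family, such as Tgtp1 and Tgtp2 or the Gbp cluster, can share reads, and how shared reads were counted is not stated, so the split between copies is uncertain.

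Gbp2 stood at 8.95, 9.22 and 10.2 CPM in untreated and 487, 591 and 541 CPM in IL-27 libraries. It rose 57.1-fold (log2 fold change 5.84, SE 0.12, edgeR adjusted p = 6.51e-09). Iigp1, an immunity-related GTPase, went from 1, 6 and 15 raw counts to 1256, 1606 and 1342, or from 0.0278, 0.181 and 0.419 CPM to 34.3, 44.3 and 36.7 CPM. Its fitted fold was 181 (edgeR adjusted p = 2.19e-06), and the ratio of summed counts had a 95% interval of 119 to 289 that covers counting error only. Every IL-27 library lay far above every untreated library for both genes.

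Other members followed in order of fold. Tgtp2 rose 84.0-fold from 0.417, 0.120 and 0.725 CPM to 34.4, 35.6 and 38.3 CPM. Gbp4 rose 64.3-fold, Gbp6 62.8-fold, Gbp5 27.6-fold, Gbp3 21.9-fold and Gbp7 10.6-fold, and for none did the groups overlap. Irgm1, a regulator of the family, was already at 39.5, 40.3 and 45.5 CPM in untreated cells and reached 283, 308 and 299.5 CPM (7.11-fold, edgeR adjusted p = 2.81e-07). Igtp and Irgm2 rose by less, 4.27-fold and 2.21-fold. Ifi47, a further interferon-inducible GTPase that was in no list, moved from 8.37, 7.47 and 10.1 CPM to 88.0, 96.5 and 95.2 CPM (10.8-fold, edgeR adjusted p = 2.19e-06).

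**Figure D2:**
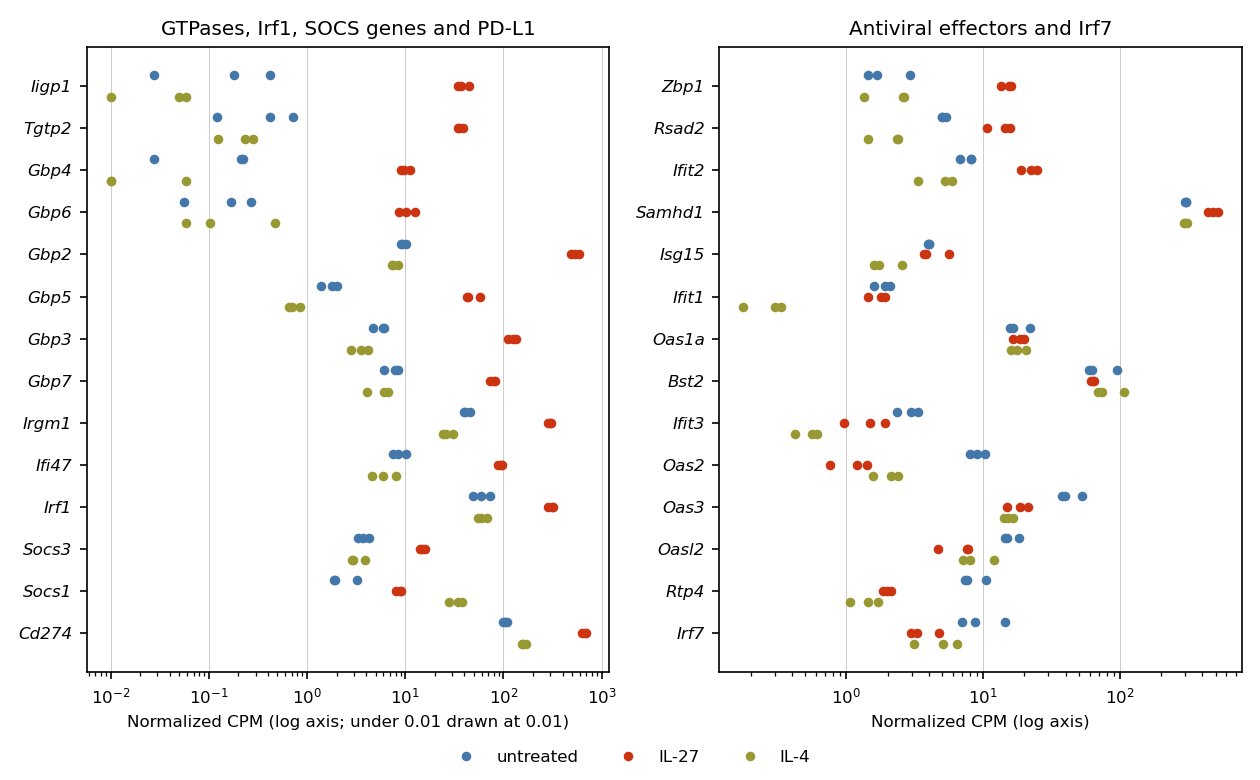
CPM per library on a log axis for interferon-linked genes, with untreated libraries in blue, IL-27 in red and IL-4 in olive; left, GTPases, Irf1, feedback genes and Cd274, with values under 0.01 drawn at 0.01, right, antiviral effectors and Irf7. In the left panel the red points lie to the right of the blue points for each gene, whereas in the right panel they lie on either side.

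Interferon regulatory factors split. Of 11 tested, 2 were higher and 5 lower (median log2 -0.20). Irf1, a transcription factor that drives many interferon gamma-responsive genes, rose 5.00-fold, from 49.5, 73.6 and 59.7 CPM to 285, 320.1 and 309 CPM (edgeR adjusted p = 3.92e-06). Irf8, a macrophage lineage factor, was 1.53-fold higher, a call lost in 3 alternatives. Irf7, the amplifier of type I interferon, was 2.73-fold lower, at 7.01, 14.4 and 8.65 CPM against 2.97, 4.72 and 3.28 CPM (edgeR adjusted p = 0.00903). Irf5 fell 1.40-fold.

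The promoters of 6 of these genes are shown because the genes moved together, or, for Ifit1, did not pass the test, while each has a window with an element of the same pathways. Each window runs from 250 bases before to 50 bases after a RefSeq transcription start in GRCm38.p6, 5′ to 3′ on the strand of the gene, and capitals mark a GAS match (TTCNNNGAA) or an ISRE core (GAAA, any 2 bases, GAAA) on either strand. The authors' counts were made on GRCm39, so these coordinates are those of the reference table alone. The first window, of Irf1 at chr11:53769764-53770063 (plus strand), holds 1 GAS starting 90 bases before the start site. A second RefSeq window of Irf1, at chr11:53770223-53770522, holds neither element and is not printed.
Irf1: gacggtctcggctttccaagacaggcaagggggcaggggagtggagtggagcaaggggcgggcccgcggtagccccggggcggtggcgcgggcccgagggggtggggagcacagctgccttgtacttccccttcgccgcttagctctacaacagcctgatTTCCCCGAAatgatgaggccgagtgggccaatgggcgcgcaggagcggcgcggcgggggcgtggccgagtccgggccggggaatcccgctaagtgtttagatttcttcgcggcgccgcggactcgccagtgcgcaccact
Socs3: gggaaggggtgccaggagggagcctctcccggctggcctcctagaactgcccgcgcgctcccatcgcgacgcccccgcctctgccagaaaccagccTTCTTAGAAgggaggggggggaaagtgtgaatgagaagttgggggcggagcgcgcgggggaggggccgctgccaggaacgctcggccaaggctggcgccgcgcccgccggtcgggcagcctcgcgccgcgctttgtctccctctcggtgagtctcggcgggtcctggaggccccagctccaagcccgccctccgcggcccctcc
Gbp2: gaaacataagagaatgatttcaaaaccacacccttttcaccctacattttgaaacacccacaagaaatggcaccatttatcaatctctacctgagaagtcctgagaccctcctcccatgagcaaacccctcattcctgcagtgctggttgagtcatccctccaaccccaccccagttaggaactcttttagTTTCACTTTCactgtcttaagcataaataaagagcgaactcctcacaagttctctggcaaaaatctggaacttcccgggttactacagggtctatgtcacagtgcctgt
Gbp5: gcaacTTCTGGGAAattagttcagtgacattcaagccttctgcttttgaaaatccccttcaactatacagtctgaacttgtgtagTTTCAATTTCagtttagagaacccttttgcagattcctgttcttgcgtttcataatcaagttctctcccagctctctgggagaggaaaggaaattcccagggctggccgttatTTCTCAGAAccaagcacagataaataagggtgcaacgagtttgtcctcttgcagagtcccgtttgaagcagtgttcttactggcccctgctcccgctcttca
Tgtp2: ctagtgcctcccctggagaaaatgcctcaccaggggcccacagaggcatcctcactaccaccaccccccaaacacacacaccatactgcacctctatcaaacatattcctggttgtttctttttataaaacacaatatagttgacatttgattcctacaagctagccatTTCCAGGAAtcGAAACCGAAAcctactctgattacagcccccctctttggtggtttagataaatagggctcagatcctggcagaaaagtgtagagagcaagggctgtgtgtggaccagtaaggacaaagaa
Ifit1: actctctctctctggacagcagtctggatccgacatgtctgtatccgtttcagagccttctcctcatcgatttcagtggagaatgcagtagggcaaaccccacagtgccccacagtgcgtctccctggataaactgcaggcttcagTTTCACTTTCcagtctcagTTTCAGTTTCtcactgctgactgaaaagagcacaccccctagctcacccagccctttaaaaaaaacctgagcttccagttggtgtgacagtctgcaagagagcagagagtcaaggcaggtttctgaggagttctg

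Socs3 (chr11:117969317-117969616, minus strand) has 1 GAS at -154 from the start site. Gbp2 (chr3:142620413-142620712, plus strand) has an ISRE core at -59 and no GAS. Gbp5 (chr3:142496684-142496983, plus strand) has an ISRE core at -165 and 2 GAS matches, the first at -245. Tgtp2 (chr11:49064163-49064462, minus strand) has an ISRE core at -70 beside a GAS at -81 that also meets the stricter form TTCCNGGAA. Ifit1 (chr19:34640639-34640938, plus strand), whose RNA did not pass the test, has 2 ISRE cores, the first at -104. A match is a description of letters and not a bound site.

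Over 12895 windows of 10083 tested genes, 3.15% held an ISRE core, 6.87% a GAS and 1.24% the strict GAS. In the windows of the GTPase list, 11 in number from 10 genes, the shares were 81.8%, 54.5% and 36.4%. Genes at least 4-fold higher had shares of 7.27%, 16.4% and 3.64%, and genes at least 4-fold lower 5.99%, 9.58% and 2.4%. The class at least 4-fold higher includes GTPase genes such as Gbp2, Gbp5 and Tgtp2, so these 2 sets of shares are not separate. An ISRE core lay in 12 of the 165 windows of that class and in 9 of the 11 GTPase windows. Shares of the class without the GTPase list were not taken. Genes at least 2-fold higher had 5.12%, 7.43% and 1.98%, and genes at least 2-fold lower 3.75%, 7.06% and 1.20%. The antiviral list, most of whose called members fell, also had a high ISRE share, 36.4% of 66 windows, with a GAS in 16.7%.

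Antiviral effectors, the other large class of interferon-stimulated genes, were lower more often than higher. Of 55 tested, 8 were higher and 20 lower, with a median log2 of -0.28. Zbp1, a sensor of Z-form nucleic acids that triggers cell death, rose 7.38-fold, from 1.45, 1.69 and 2.93 CPM to 13.6, 15.4 and 15.8 CPM (edgeR adjusted p = 8.78e-05). Ifit2 was 2.88-fold and Rsad2 (viperin) 2.67-fold higher, and the other 5 increases were Herc6, Nmi, Samhd1, Slfn5 and Tor3a, of which Slfn5 was not called without IL-27 replicate 3 (edgeR adjusted p = 0.0504).

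The 2'-5'-oligoadenylate pathway, which detects double-stranded RNA, moved the other way. Oas2 stood at 8.98, 10.3 and 7.98 CPM in untreated and 0.764, 1.41 and 1.20 CPM in IL-27 libraries, 8.05-fold lower (edgeR adjusted p = 2.23e-05). Oas3 fell 2.38-fold, from 37.8, 52.4 and 39.9 CPM to 14.9, 18.6 and 21.2 CPM (edgeR adjusted p = 0.00033). Oasl2 and Oas1c were also lower, whereas Oas1a was not called. Copies of the Oas cluster may share reads.

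Further members that fell included Rtp4, a chaperone-like interferon-stimulated gene, by 4.27-fold, and Trex1, Ifitm2 and Ifitm6. The calls of Ifit3, Ddx60, Dhx58 and Ifitm1, also lower, were lost in 3 to 10 alternatives. Isg15, the ubiquitin-like modifier, was at 4, 3.95 and 3.99 CPM in untreated and 5.59, 3.67 and 3.83 CPM in IL-27 libraries (edgeR adjusted p = 0.705). Ifit1 was at 1.92, 1.6 and 2.09 CPM against 1.45, 1.79 and 1.91 CPM (edgeR adjusted p = 0.774). For both, the groups overlapped.

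Genes that sense nucleic acids were lower more often than higher, 8 against 4 of 26 tested (median log2 -0.23). Tlr8, an endosomal receptor for single-stranded RNA, fell 3.25-fold, from 356, 279 and 376 CPM to 109.7, 100.3 and 100.9 CPM (edgeR adjusted p = 6.28e-05). Ddx58, encoding RIG-I, fell 1.89-fold. Zc3hav1, which binds CpG-rich viral RNA, was 2.32-fold higher.

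MHC class I genes gave 6 higher and 3 lower of 23 tested (median log2 0.02). Nlrc5, the transactivator of class I genes, rose 3.80-fold, from 14.3, 16.3 and 14.4 CPM to 54.9, 58.3 and 57.7 CPM (edgeR adjusted p = 3.55e-06). Tap1, a subunit of the peptide transporter, rose 3.07-fold and Tapbpl, a peptide editor, 2.53-fold. MHC class II gave 2 higher and 1 lower of 15 (13.3% and 6.67%, against 14% and 15.1% of all tested genes). H2-Aa was 1.51-fold and its transactivator Ciita 1.71-fold higher, while Rfx5, a factor of the class II enhanceosome, was 1.67-fold lower. Alleles and copies of H2 genes can share reads.

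Cell-surface ligands for T cells moved in both directions, 9 higher and 9 lower of 28 (median log2 0.09). Cd274, encoding PD-L1, the ligand of the inhibitory receptor PD-1, rose 6.39-fold, from 98.2, 108 and 104 CPM to 629, 686 and 670.0 CPM (edgeR adjusted p = 8.72e-08). Cd86, a ligand of the costimulatory receptor CD28, rose 4.99-fold, from 7.26, 6.63 and 8.09 CPM to 37.5, 36.4 and 35.7 CPM (edgeR adjusted p = 2.03e-06). Neither gene's groups overlapped. Slamf8 was 3.12-fold and Slamf7 1.66-fold higher. Icosl, the ligand of ICOS, was 5.52-fold lower, and Vsir, encoding the inhibitory VISTA, 1.95-fold lower.

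Secreted cytokines and growth factors included some of the largest changes: 17 of 35 tested were higher and 8 lower (median log2 0.65). Inhba, the activin A subunit, rose 8.64-fold, from 10.9, 9.61 and 11.2 CPM to 105, 84.9 and 84.4 CPM (edgeR adjusted p = 1.49e-06). Il1rn, the antagonist of the IL-1 receptor, rose 7.45-fold, from 6.45, 3.16 and 6.42 CPM to 35.3, 39.8 and 44.5 CPM (edgeR adjusted p = 2.71e-05). Lif, a gp130 cytokine, was 4.68-fold, Gdf15 3.59-fold, Hbegf 3.57-fold and Pdgfa 3.25-fold higher.

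Il11, another gp130 cytokine that was not on the list, had 0 counts in each untreated library and 91, 44 and 72 counts with IL-27. This is 65.3-fold higher when the untreated group is set to a floor of 3 counts. The 95% interval of the ratio had a lower limit of 52.7, for counting error only. Il1b went the other way, with 98, 80 and 84 counts in untreated and 0, 0 and 1 with IL-27. The summed ratio was 276.7-fold lower with a 95% interval of 49.2 to 10970 for counting error only. Within the IL-1 family, Il1a was 3.11-fold higher and Il18 2.81-fold lower, the latter not called without untreated replicate 3 or IL-27 replicate 3. Tnf was 1.59-fold higher. Il10, an anti-inflammatory cytokine, had 19, 25 and 17 counts in untreated and 13, 1 and 7 with IL-27, and did not pass the test (edgeR adjusted p = 0.0899). The count of cytokines and growth factors that were lower was 5 when any one of untreated replicate 3 and the first and second IL-27 libraries was left out.

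Receptor chains of other cytokines and STATs gave 14 higher and 5 lower of 37 (median log2 0.09). Ifngr1, the ligand-binding chain of the interferon gamma receptor, fell 2.28-fold, from 260.2, 265.6 and 260.0 CPM to 114, 113 and 117 CPM (edgeR adjusted p = 2.45e-06). Il6ra was 2.47-fold, Csf3r 2.24-fold and Il10ra 2.04-fold lower. Il1rl1, the IL-33 receptor, rose 10.2-fold, from 0.945, 0.482 and 0.502 CPM to 10.0, 3.94 and 5.94 CPM (edgeR adjusted p = 0.000189), with a wide spread among the treated libraries. Il7r was 2.11-fold higher.

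Chemokine genes gave 4 higher and 1 lower of 17 tested (median log2 0.12). Ccl22, a ligand of CCR4, was 3.86-fold higher, and Ccl4 was 1.41-fold lower, a call lost without untreated replicate 3 or IL-27 replicate 3. Cxcl10, a classical interferon-induced chemokine, was not called.

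Receptors for chemoattractants were lower in 11 and higher in 3 of 22 (median log2 -0.75). Ccr3, the eotaxin receptor, was 6.81-fold lower, at 3.09, 3.01 and 3.66 CPM against 0.573, 0.469 and 0.383 CPM (edgeR adjusted p = 0.000138). The C5a receptors C5ar2 and C5ar1 were 4.11-fold and 2.17-fold lower, Ccr2, the monocyte receptor for CCL2, 2.82-fold lower (not called without IL-27 replicate 1 or 2) and the fractalkine receptor Cx3cr1 1.81-fold lower. Markers of eosinophils, which also carry Ccr3, summed to 39.1 to 42.5 CPM in untreated and 14.2 to 16.5 CPM in IL-27 libraries, all of it Siglecf, while their defining genes Prg2 and Ear1 were at 0. Ccrl2, a non-signalling chemerin receptor, was 2.16-fold higher. The number of lower receptors dropped to 6 without IL-27 replicate 1 and to 6 without IL-27 replicate 2.

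Toll-like receptors and their adaptors were lower in 9 and higher in 2 of 26 (median log2 -0.39). The count of lower members was 5 without IL-27 replicate 1 and 5 without IL-27 replicate 2. Besides Tlr8, Tlr1 fell 2.12-fold and Cd14, the lipopolysaccharide co-receptor, 1.70-fold, while Irak2, a kinase of the receptor complex, was 2.10-fold higher. NF-kappa-B factors and inhibitors were lower in 9 and higher in 1 of 28 (median log2 -0.31), and 5 were lower without IL-27 replicate 2 or without IL-27 replicate 3. Ikbke was 2.73-fold lower, Tnip3 2.79-fold lower and Nfkbid 1.71-fold lower, and the increase was in Tnfaip3, the deubiquitinase A20, at 1.36-fold.

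Genes of inflammasomes and cell death gave 9 higher and 8 lower of 40 (median log2 0.01). Mefv, encoding the inflammasome sensor pyrin, fell 5.59-fold, from 26.4, 25.5 and 24.2 CPM to 5.54, 3.81 and 4.27 CPM (edgeR adjusted p = 4.52e-06). Pycard, the shared inflammasome adaptor, fell 1.57-fold. The survival gene Bcl2 was 3.03-fold higher, and the pro-apoptotic Bmf and Bcl2l11 (Bim) were 3.03-fold and 1.73-fold lower.

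C-type lectins, CD300 molecules and Siglecs were divided, with 9 higher and 12 lower of 43 (median log2 0.02). Clec4e (Mincle), a receptor for mycobacterial glycolipid, was 4.39-fold higher, and the inhibitory receptor Cd300lf 5.33-fold higher. Cd300e was 13.1-fold lower, at 1.75, 1.90 and 2.20 CPM against 0.191, 0.221 and 0.0274 CPM (edgeR adjusted p = 0.000263). Clec4a1 and Clec4a3 were 4.97-fold and 3.72-fold lower, with the caution that Clec4a copies can share reads.

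Genes of amino acid supply and of the stress response to its shortage included many large increases. Of 31 genes of the unfolded protein and ATF4 response, 13 were higher and 4 lower (median log2 0.15). Atf4, the transcription factor of the integrated stress response, rose 3.68-fold, from 127, 128 and 133 CPM to 488, 480.1 and 463 CPM (edgeR adjusted p = 2.81e-07). Asns, asparagine synthetase, rose 10.5-fold, from 9.18, 9.37 and 11.6 CPM to 107, 102 and 109 CPM (edgeR adjusted p = 1.36e-07). Trib3, a pseudokinase induced by ATF4, rose 19.4-fold, from 4.17, 3.73 and 4.10 CPM to 82.2, 77.0 and 73.7 CPM (edgeR adjusted p = 2.18e-07). The 3 libraries of each group lay close together and the groups were far apart.

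Chac1, which degrades glutathione, rose 11.0-fold, Ddit3 (CHOP) 4.20-fold, Sesn2 3.47-fold and Atf5 3.19-fold. In contrast Hspa5, the main chaperone of the endoplasmic reticulum, was lower, with a log2 fold change of -0.47. Amino acid transporters were higher in 14 and lower in 3 of 25 (median log2 0.69). Slc7a1, a carrier of arginine and lysine, rose 9.0-fold, from 21.7, 19.6 and 21.2 CPM to 192, 183 and 188 CPM (edgeR adjusted p = 5.52e-08). Slc7a5, the large neutral amino acid exchanger, rose 7.68-fold, and its partner Slc3a2 2.18-fold. The cystine exchanger Slc7a11 was 4.65-fold and the serine and alanine carrier Slc1a4 4.37-fold higher.

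Enzymes of serine, one-carbon and nucleotide synthesis gave 13 higher and 8 lower of 44 (median log2 0.13). Mthfd2, the mitochondrial folate enzyme, rose 6.09-fold, from 22.7, 25.8 and 26.7 CPM to 155, 152 and 151 CPM (edgeR adjusted p = 2.18e-07). The 3 enzymes of serine synthesis were called higher, Phgdh at 3.30-fold, Psph at 2.34-fold and Psat1 at 2.00-fold. In arginine and polyamine metabolism 9 were higher and 6 lower of 24. Ass1, which makes argininosuccinate, was 3.28-fold and Odc1, the first enzyme of polyamine synthesis, 2.52-fold higher, whereas Gatm, the first enzyme of creatine synthesis, was 3.43-fold lower, at 38.1, 38.5 and 40.5 CPM against 12.4, 10.6 and 11.1 CPM (edgeR adjusted p = 1.76e-06). Aldh18a1, of proline synthesis, was 4.32-fold higher.

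Acod1, which makes itaconate from the citrate cycle, rose 20.7-fold, from 1.14, 1.6 and 2.73 CPM to 40.1, 36.2 and 37.2 CPM (edgeR adjusted p = 3.47e-05). Of the citrate cycle and pyruvate list to which it belongs, 10 were lower and 4 higher of 42 (median log2 -0.18). Idh1, the cytosolic isocitrate dehydrogenase, fell 2.74-fold, from 353, 352 and 370.0 CPM to 131, 139.5 and 122 CPM (edgeR adjusted p = 3.92e-06). Glycolysis gave 7 higher and 5 lower of 30, with Hk2 1.90-fold, Ldha 1.68-fold and Pfkfb3 2.17-fold higher and Pfkm 2.87-fold lower. The lactate carrier Slc16a1 was 2.76-fold higher.

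Antioxidant genes were lower in 12 and higher in 4 of 35 (median log2 -0.28). Catalase (Cat) fell 1.86-fold, glutathione reductase (Gsr) 1.97-fold and G6pdx, the entry to the pentose phosphate pathway, 2.35-fold. Sterol genes were lower in 11 and higher in 5 of 40 (median log2 -0.25), with Cyp27a1, which makes 27-hydroxycholesterol, 2.78-fold lower. The LXR-linked genes were lower in 7 and higher in 2 of 18 (median log2 -0.36), among them the cholesterol exporter Abca1 at 2.15-fold lower and Mylip at 1.88-fold lower.

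In the eicosanoid pathway 6 were higher and 5 lower of 26 (median log2 -0.11). Hpgd, which inactivates prostaglandins, fell 24.4-fold, from 90.9, 69.5 and 100.1 CPM to 4.39, 3.34 and 2.93 CPM (edgeR adjusted p = 1.29e-06). Ptgs2, the inducible cyclooxygenase, rose 5.84-fold, from 1.64, 0.663 and 1.45 CPM to 9.38, 6.23 and 6.46 CPM (edgeR adjusted p = 0.000652), and Ptgs1, the constitutive form, fell 2.36-fold. The groups did not overlap for Hpgd or Ptgs2.

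Iron genes gave 6 higher and 6 lower of 26 (median log2 -0.09). Slc40a1, encoding ferroportin, the iron exporter, fell 8.78-fold, from 158, 152 and 172 CPM to 19.0, 17.8 and 18.1 CPM (edgeR adjusted p = 1.19e-06). Ncoa4, the receptor for ferritin breakdown, fell 1.98-fold and Cd163, the haemoglobin scavenger, 6.75-fold. Ceruloplasmin (Cp) was 3.20-fold and the mitochondrial iron importer Slc25a37 2.37-fold higher.

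**Figure D3:**
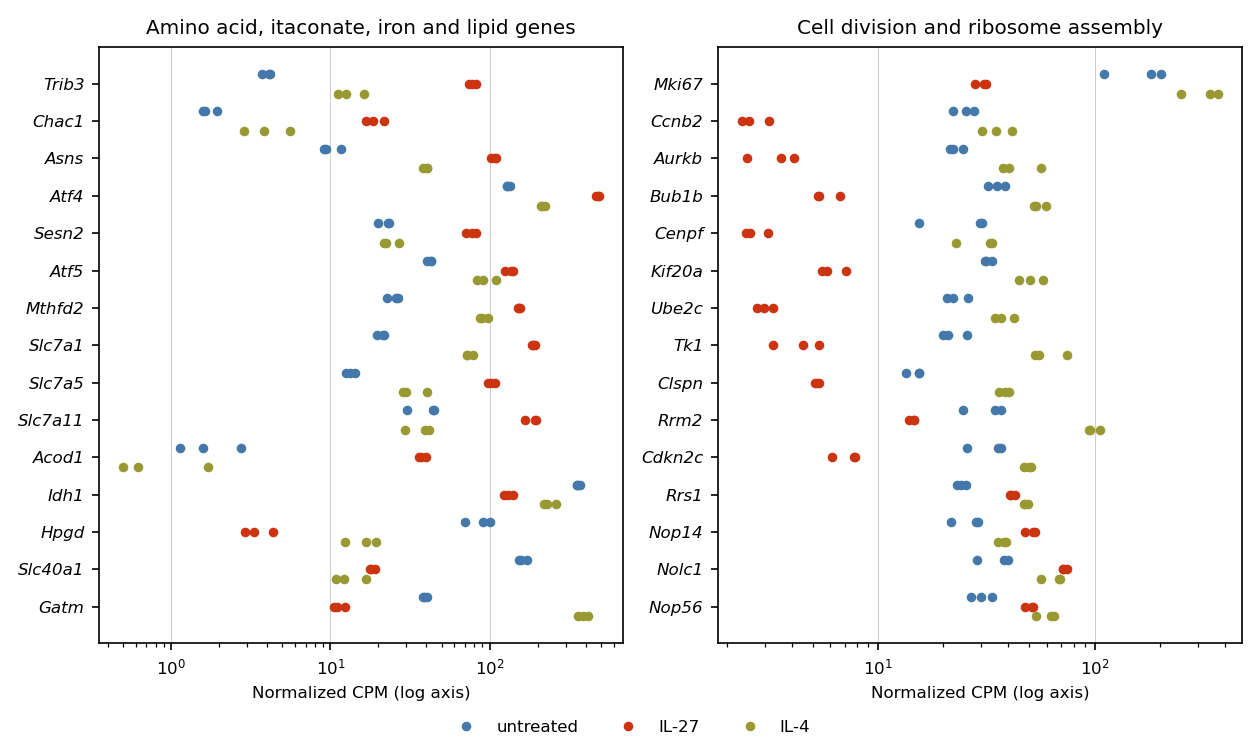
CPM per library on a log axis for genes of the amino acid response, iron and lipid mediators (left) and of cell division and ribosome biogenesis (right), in untreated (blue), IL-27 (red) and IL-4 (olive) libraries. For Trib3 the red points lie between 73.7 and 82.2 CPM and the blue points between 3.73 and 4.17 CPM, whereas for Ccnb2 the order is inverted.

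Cell division genes fell together. All 40 tested genes of G2 and mitosis were called lower, against 15.1% of all tested genes. The values of all 40 did not overlap between groups, against 26.0% of all tested genes in that direction. The log2 differences ran from -3.23 (Ccnb2) to -0.40 (Cenpa), with a median of -2.27. Ccnb2, cyclin B2, was at 25.5, 27.6 and 22.3 CPM in untreated and 2.35, 2.54 and 3.15 CPM in IL-27 libraries, 9.38-fold lower (edgeR adjusted p = 1.63e-06). Mki67, a proliferation antigen, fell 5.49-fold, from 203, 111 and 182 CPM to 28.0, 30.9 and 31.4 CPM (edgeR adjusted p = 3.29e-05). Its lowest untreated value was in replicate 2, and with that library left out 40 genes of the list were still called lower.

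Other members covered each stage of mitosis. The checkpoint kinase gene Bub1b fell 6.14-fold, the kinetochore gene Cenpf 9.23-fold, Aurkb 6.73-fold, the anaphase factors Cdc20 and Ube2c 5.93-fold and 7.64-fold, and the cytokinesis genes Kif20a and Racgap1 5.23-fold and 5.17-fold. Foxm1, a transcription factor of mitotic genes, fell 3.24-fold and Cdk1 3.74-fold. Outside the list, Aspm, Pimreg, Spag5, Nek2 and Kifc1, all of the spindle or its control, were 5.63-fold to 9.76-fold lower. Among kinesins 15 were lower and 2 higher of 31 (median log2 -0.67).

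Of 41 S phase genes, 26 were lower and 2 higher, with a median log2 of -0.59. Tk1, thymidine kinase, fell 5.09-fold, Clspn 2.82-fold, Rrm2 2.24-fold, Rrm1 2.20-fold and Lig1 2.22-fold. Cell cycle brakes gave 9 higher and 9 lower of 32. Cdkn2c (p18) fell 4.54-fold, Btg2 3.47-fold and Sesn1 3.63-fold, and Cdkn1a (p21) was not called. Ccnd1, cyclin D1, was 2.14-fold higher.

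Genes of ribosome biogenesis moved upward. With Myc and its network they gave 21 higher and 3 lower of 38 (median log2 0.45), and Myc itself was not called. Gnl3 (nucleostemin) was 2.62-fold, Nolc1 2.03-fold, Nop14 1.93-fold, Rrs1 1.71-fold and Nop56 1.68-fold higher. The ribosomal proteins themselves gave 0 higher and 2 lower of 80 (median log2 -0.15).

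Genes of the extracellular matrix and its proteases were higher in 25 and lower in 2 of 43 (median log2 0.58). Plau, the urokinase plasminogen activator, rose 3.32-fold, from 255, 316 and 253 CPM to 849, 922 and 969 CPM (edgeR adjusted p = 8.51e-06). Mmp19, a matrix metalloproteinase, rose 3.32-fold, from 169, 174 and 190.2 CPM to 599, 593 and 578 CPM (edgeR adjusted p = 7.89e-07). Timp3, an inhibitor of these enzymes, rose 5.50-fold, from 86.9, 74.1 and 73.0 CPM to 473, 427 and 386 CPM (edgeR adjusted p = 1.19e-06). Timp1 was 3.37-fold, Lox, a collagen crosslinker, 3.99-fold, Tnc (tenascin C) 3.90-fold and Mmp9 2.46-fold higher.

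Serpins, a family of protease inhibitors, were higher in 9 and lower in 0 of 17 (median log2 0.69), although 1 was lower when untreated replicate 2 was left out. Serpina3f went from 0, 0 and 1 counts to 118, 135 and 153 counts, a ratio of 384.5 with a 95% interval of 68.6 to 15220 for counting error only. Serpinb2 was 2.44-fold and Serpinh1, the collagen chaperone, 2.05-fold higher.

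Markers of fibroblasts and stroma moved with these genes. Their summed level was 680 to 815 CPM in untreated, 1049 to 1317 CPM in IL-27 and 540 to 688 CPM in IL-4 libraries, and 5 of 6 tested markers were called higher. Dcn (decorin) rose 4.52-fold, from 7.98, 5.69 and 9.26 CPM to 48.0, 28.1 and 27.6 CPM (edgeR adjusted p = 0.000147). Col1a1 was at 338, 339.9 and 283 CPM in untreated and 510.2, 449 and 413 CPM in IL-27 libraries (1.43-fold, edgeR adjusted p = 0.029), a call lost in 4 alternatives. Col3a1 and Pdgfrb were 2.05-fold and 2.38-fold higher, and IL-27 replicate 1 had the highest value for each of these markers. The part of such cells in the rise of matrix, serpin and growth factor genes was not tested.

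**Figure D4:**
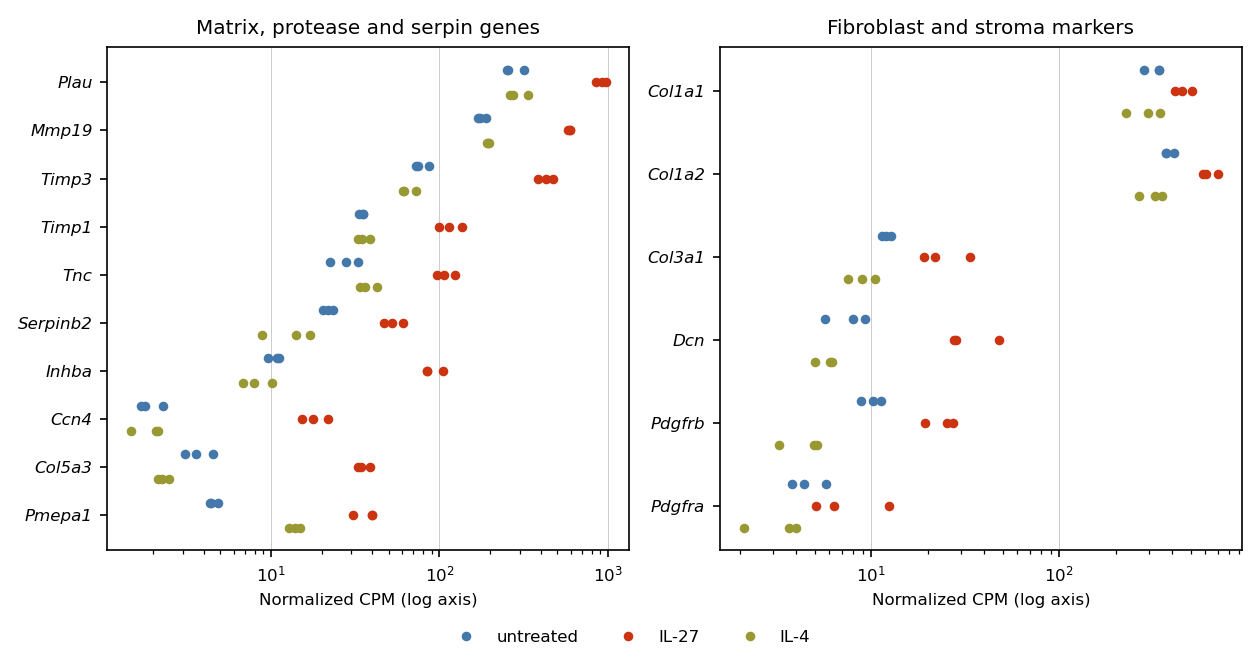
CPM per library on a log axis for matrix, protease and growth factor genes (left) and for markers of fibroblasts and stroma (right), in untreated (blue), IL-27 (red) and IL-4 (olive) libraries. The red points lie to the right of the blue points for Dcn, at 27.6 to 48.0 CPM against 5.69 to 9.26 CPM, as they do for Plau and Timp3.

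Macrophage identity genes were reduced in part. Of 33 lineage genes, 7 were higher and 11 lower (median log2 -0.19), and of the 10 macrophage markers 6 were lower and 0 higher. Csf1r, the receptor for macrophage colony-stimulating factor, fell 1.93-fold, from 2416, 3268 and 2503 CPM to 1439, 1373 and 1429.7 CPM (edgeR adjusted p = 0.00115). Adgre1 (F4/80) fell 1.59-fold, Maf 2.57-fold and the efferocytosis receptor Mertk 2.25-fold. Runx3 was 3.63-fold, Klf4 2.81-fold and Bhlhe40 2.61-fold higher.

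Genes of alternative activation, the state that IL-4 induces, were higher in 5 and lower in 9 of 32 (median log2 -0.14). Chil3, a chitinase-like protein, fell 23.9-fold, from 26.2, 21.9 and 26.9 CPM to 1.96, 0.579 and 0.574 CPM (edgeR adjusted p = 1.11e-05). Arg1 (arginase) had 182, 151 and 221 counts in untreated and 11, 1 and 0 with IL-27, 48.75-fold lower in the summed counts (95% interval 27.7 to 94.9). Retnla had 56, 34 and 29 counts against 1, 0 and 0. Chil3 and Retnla have close relatives with which reads can be shared.

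These 3 genes were at nearly the same share of their IL-4 level in the untreated libraries: 1.10% for Chil3, 1.09% for Arg1 and 1.08% for Retnla, against 0.045%, 0.022% and 0.0086% in IL-27 libraries. The shares are from CPM on library totals, without TMM factors. Rnase2a, Il31ra and Cdh1 had like shares in untreated libraries, 0.99%, 0.88% and 0.84%, against 0%, 0.25% and 0.63% in IL-27 libraries. Whether RNA from the IL-4 cultures reached the untreated libraries was not tested. The size of decreases in genes that are high with IL-4, Chil3, Arg1 and Retnla among them, depends on it. In an analysis chosen after the data were seen, 0.843% of the IL-4 profile was subtracted from the untreated libraries. This share is smaller than those of Chil3, Arg1 and Retnla. Chil3 was then 5.54-fold lower (edgeR adjusted p = 0.0218) and Arg1 10.5-fold lower (edgeR adjusted p = 0.0276), and the calls of Retnla, Irf4 and Rnase2a were lost. Subtraction at the full share was not run. Mrc1, another marker of the state, was not called (edgeR adjusted p = 0.775), and Tgm2 was higher, at 865, 822 and 879 CPM against 194, 307 and 231 CPM (3.51-fold). Of 21 classical activation genes 8 were higher and 1 lower (median log2 0.11).

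**Figure D5:**
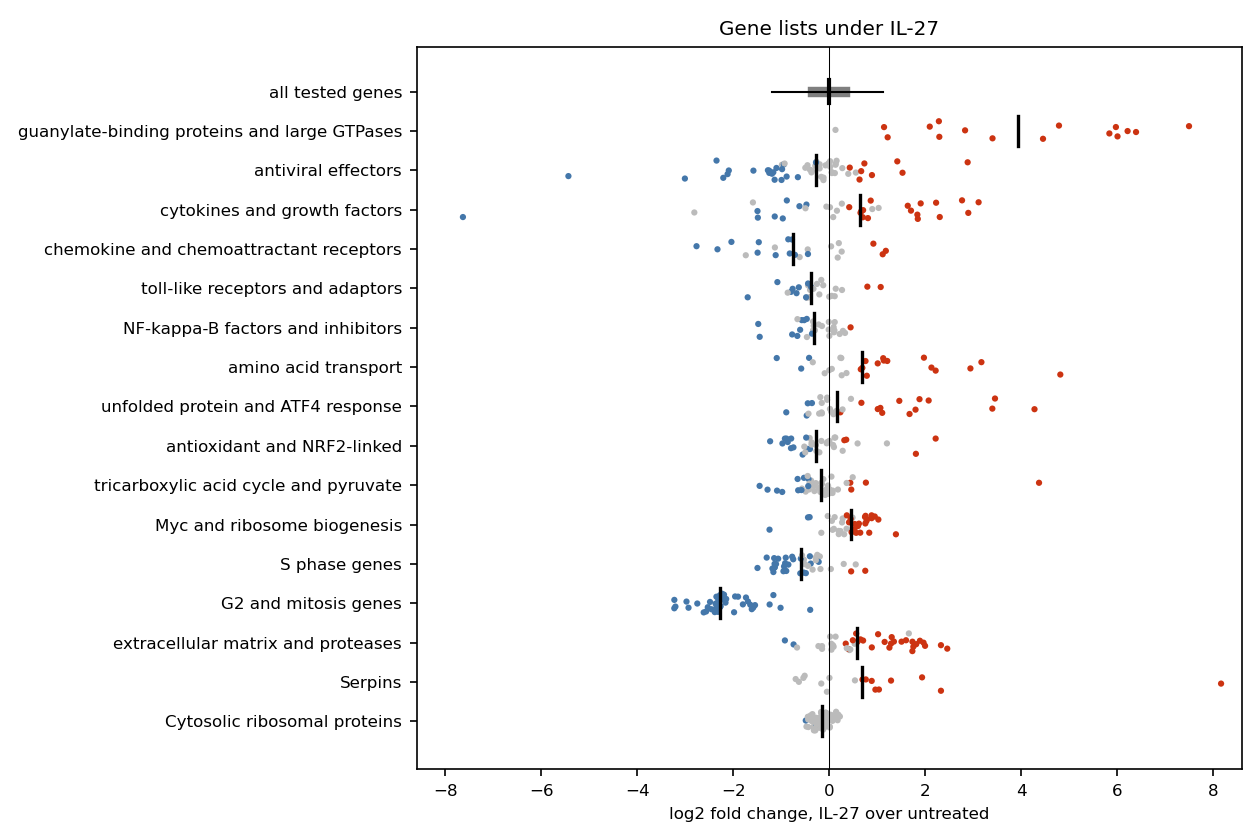
Log2 fold change of IL-27 against untreated for each tested member of 16 gene lists, with members called higher in red, lower in blue and not called in grey; the black bar is the median, and the top line shows all tested genes by their 5th to 95th (thin) and 25th to 75th (thick) percentiles. The GTPase list lies to the right with a median of 3.93 and the list of G2 and mitosis genes to the left with a median of -2.27.

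Membrane and adhesion genes gave 10 higher and 10 lower of 41 tested (median log2 -0.11). Sema7a, a ligand of plexins and integrins, rose 3.86-fold, from 8.45, 7.23 and 7.65 CPM to 33.2, 29.0 and 28.0 CPM (edgeR adjusted p = 4.6e-06). Itgb3, the beta subunit of the vitronectin receptor, rose 3.20-fold, from 120.0, 149 and 125 CPM to 405, 412 and 442 CPM (edgeR adjusted p = 1.8e-05). Icam2, an adhesion ligand of LFA-1, fell 7.49-fold, from 3.81, 3.22 and 3.91 CPM to 0.709, 0.276 and 0.465 CPM (edgeR adjusted p = 7.93e-05), and Itgal, the LFA-1 alpha subunit itself, fell 2.62-fold. Spn (CD43) fell 5.89-fold and Cd34 5.22-fold, both outside the lists.

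Of the TNF ligand superfamily, 3 higher and 1 lower of 8 tested (median log2 0.44). Tnfsf9, the ligand of 4-1BB, was 2.35-fold higher. Tnfsf8, the CD30 ligand, was 8.09-fold higher and Tnfsf13b (BAFF) 2.82-fold lower, and each of these calls was lost in 3 alternatives. Of the receptors, 6 higher and 3 lower of 17 tested (median log2 0.20), with Tnfrsf26 2.74-fold and Tnfrsf12a, the TWEAK receptor, 1.92-fold higher and Tnfrsf11a (RANK) 1.64-fold lower. Among genes of cell fusion and osteoclasts, which include the last, 7 higher and 2 lower of 18 tested (median log2 0.37). Ctsk, a collagen-degrading cathepsin, was 1.97-fold and the AP-1 partner Jdp2 3.70-fold higher, and Ocstamp, a fusion protein, was 2.85-fold lower.

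Enzymes of intracellular signalling changed in both directions. Phosphodiesterases, which degrade cyclic nucleotides, gave 4 higher and 4 lower of 16 tested (median log2 -0.31). Pde4b, a cAMP-specific form, fell 4.13-fold, from 10.8, 9.58 and 10.1 CPM to 3.11, 2.70 and 1.56 CPM (edgeR adjusted p = 0.000259). Pde1c was 9.11-fold lower, and Pde10a was 5.27-fold higher at under 2 CPM in every library. MAP kinase cascade genes gave 5 higher and 8 lower of 38 tested (median log2 -0.10). These were 13.2% and 21.1%, against 14% and 15.1% of all tested genes. Mapk14, the p38 alpha kinase, fell 2.13-fold, from 143, 172 and 148 CPM to 71.0, 70.3 and 76.0 CPM (edgeR adjusted p = 2.4e-05). Map2k6, a kinase that activates p38, fell 4.34-fold. Dual-specificity phosphatases, which act on MAP kinases, gave 6 higher and 3 lower of 20 tested (median log2 0.19), with Dusp13 3.85-fold, Dusp8 2.15-fold and Dusp4 1.77-fold higher and Dusp22 1.62-fold lower.

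Lipid kinases and phosphatases gave 6 higher and 13 lower of 55 tested (median log2 -0.17). The leukocyte PI3 kinase genes Pik3cd, Pik3cg and Pik3r6 were 2.45-fold, 1.58-fold and 2.70-fold lower. Purinergic and nucleotide signalling gave 7 higher and 9 lower of 29 tested (median log2 -0.10): the ADP receptor P2ry1 was 2.03-fold higher and the ATP-gated channel P2rx7 1.69-fold lower. Potassium channels gave 1 higher and 6 lower of 28 tested (median log2 -0.40), with Kcnj2 2.24-fold lower and Kcnj9, at under 1 CPM in every library, 5.90-fold lower. Penk, the enkephalin precursor, fell 4.52-fold, from 4.62, 2.71 and 2.73 CPM to 0.655, 0.910 and 0.656 CPM (edgeR adjusted p = 0.000593).

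Tryptophan and NAD genes gave 3 higher and 4 lower of 21 tested (median log2 -0.07). These were 14.3% and 19.0%, against 14% and 15.1% of all tested genes. Wars, the tryptophanyl-tRNA synthetase and an interferon gamma-inducible gene, rose 3.39-fold, from 37.1, 56.2 and 42.5 CPM to 142, 163 and 156 CPM (edgeR adjusted p = 6.97e-05). Nampt, the salvage enzyme of NAD, was 1.95-fold higher. Fatty acid oxidation and lipid droplet genes gave 7 higher and 10 lower of 44 tested (median log2 -0.04), with Hadh 1.72-fold and lipoprotein lipase (Lpl) 1.63-fold lower and the droplet protein gene Hilpda 2.17-fold higher. The hypoxia and VEGF axis gave 12 higher and 3 lower of 27 tested (median log2 0.34).

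Lists of protein turnover and organelles were counted as well. Proteasome genes gave 2 higher and 0 lower of 48 tested (median log2 0.00), lysosome genes 7 higher and 2 lower of 47 tested (median log2 0.03), mitochondrial ribosomal proteins 5 higher and 6 lower of 78 tested (median log2 0.03) and complex I subunits 1 higher and 3 lower of 38 tested (median log2 -0.19). Autophagy genes gave 5 higher and 5 lower of 36 tested (median log2 0.06), which is 13.9% each way against 14% and 15.1% of all tested genes. Optn (optineurin) and Sqstm1 (p62), receptors for selective autophagy, were 2.42-fold and 1.97-fold higher, and Optn moved from 49.3, 44.4 and 49.5 CPM to 116, 120.3 and 111 CPM (edgeR adjusted p = 4.92e-06).

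Transcription and chromatin factors gave mixed counts. AP-1, BATF and ETS factors gave 9 higher and 13 lower of 45 tested (median log2 -0.07): Batf3, a dendritic cell factor, was 3.21-fold lower, Prdm1 (Blimp-1) 1.83-fold lower and Nfil3 1.78-fold higher. Immediate early genes gave 3 higher and 9 lower of 26 tested (median log2 -0.33), with Fos 1.99-fold lower and Maff 4.43-fold higher. Histone and DNA modifying enzymes gave 6 higher and 13 lower of 50 tested (median log2 -0.07): the polycomb methyltransferase Ezh2 was 1.78-fold lower and the DNA methyltransferase Dnmt3a 1.57-fold higher. The linker histone gene H1f10 was 3.16-fold lower. Trim ubiquitin ligases gave 1 higher and 9 lower of 43 tested (median log2 -0.12), with Trim59 4.43-fold lower. The DNA sensors and relatives of the Ifi200 family gave 2 higher and 0 lower of 9 tested (median log2 0.39), the calls being Ifi206 at 3.85-fold, lost in 9 alternatives, and Ifi211 at 2.54-fold. Copies of this family can share reads.

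Of 228 solute carriers tested, 49 were higher and 39 lower (median log2 0.01). Besides the amino acid carriers, Slc29a3, a nucleoside transporter of lysosomes, was 2.19-fold and the zinc exporter Slc30a1 2.08-fold higher. Slc46a3, a lysosomal carrier, fell 3.71-fold, from 79.6, 104 and 87.4 CPM to 24.5, 25.8 and 22.6 CPM (edgeR adjusted p = 5.98e-06). Scavenger and efferocytosis receptors gave 5 higher and 5 lower of 24 tested (median log2 -0.07), where Olr1, a receptor for oxidised LDL, was 7.52-fold higher and Scarb1 1.71-fold lower. Fc receptors and complement gave 3 higher and 7 lower of 28 tested (median log2 -0.13): Fcgrt, the neonatal Fc receptor, was 2.08-fold lower and the inhibitory Fcgr2b 1.59-fold higher.

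Further large increases lay in other genes, some of a list or family and some of none. Hcar2, a receptor for ketone bodies and niacin, rose 26.7-fold, from 0.501, 0.452 and 0.446 CPM to 11.9, 11.5 and 14.2 CPM (edgeR adjusted p = 6.93e-07). Lpar3, a receptor for lysophosphatidic acid, had 2, 0 and 1 counts in untreated and 61, 84 and 64 with IL-27, a ratio of 66.0 (95% interval 22.3 to 322.5). Other increases included Efcc1 (12.0-fold), Rgcc (9.86-fold), Ccn4, a matricellular protein (9.53-fold), Col5a3 (9.41-fold), Pmepa1, an inhibitor of TGF-beta signalling (8.08-fold), Mreg (7.80-fold), Tmeff1 (7.67-fold), the nucleotidyltransferase Tent5c (6.66-fold) and Nt5e, which makes adenosine from AMP (6.95-fold). Kdr, a VEGF receptor, was 4.45-fold and Vegfa 1.82-fold higher, and Sphk1, a sphingosine kinase, 4.04-fold higher. Endothelial cells also express Kdr, and their markers summed to 90.8 to 134 CPM in untreated and 139 to 157 CPM in IL-27 libraries, with 2 of 4 tested markers higher and 1 lower. Their part in the rise of Kdr was not tested.

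Of the decreases in genes of no list, the largest among those with a mean of at least 5 CPM was that of Zfyve28, at 26.6, 35.1 and 28.1 CPM in untreated and 2.67, 2.32 and 2.27 CPM in IL-27 libraries (12.4-fold lower, edgeR adjusted p = 1.63e-06). Fgd2, an exchange factor for CDC42, fell 9.61-fold and Pou2f2 (Oct-2) 8.42-fold. Rassf4, a RAS-association protein that was abundant in untreated cells, fell 5.46-fold, from 365, 357 and 354 CPM to 67.6, 64.3 and 65.0 CPM (edgeR adjusted p = 8.72e-08). Dmpk, a kinase, fell 4.86-fold. Among listed genes not yet described, the macrophage adhesion receptor Adgre4 fell 12.1-fold, Zfp467, of the zinc finger family, 6.03-fold and Zfp36l1, an mRNA decay factor of the immediate early list, 3.77-fold. Of genes in no list, Fgl2, Cdo1, Calhm6, Gcnt2, Ntn1 and Fmnl2 were between 4.59-fold and 5.88-fold higher. ABC transporters were lower in 15 and higher in 3 of 32 (median log2 -0.48).

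Several genes with high FPKM values also moved. Lhfpl2 went from 809, 842 and 845 CPM to 2094, 2178 and 2143 CPM (2.57-fold, edgeR adjusted p = 1.84e-06). Sgk1, a kinase of ion transport and survival, went from 329, 252 and 349 CPM to 1024, 1003 and 1048 CPM (3.31-fold). Gde1, a phosphodiesterase of lipid mediators, rose 4.02-fold, from 83.6, 92.0 and 87.2 CPM to 349, 353 and 356 CPM (edgeR adjusted p = 2.81e-07). Hspa8, a constitutive chaperone, fell 2.08-fold, from 889.7, 1109.6 and 952 CPM to 473, 484 and 462 CPM (edgeR adjusted p = 4.9e-05). Id2 was 2.52-fold higher, and Tuba1b 2.33-fold and Clec12a 2.29-fold lower.

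Compared directly with the IL-4 libraries, 5008 genes were called (39.8%), 2366 higher with IL-27 (18.8%) and 2642 lower (21.0%). Cytokine, dose and time cannot be told apart in this contrast. IL-4 replicate 1 stood apart from the other IL-4 libraries, with a chi-square per gene of 117 and 93.5 where the other pair gave 8.92. Without it 4852 genes were called between IL-27 and IL-4. Its deviations from the group mean correlated at 0.9 with those of untreated replicate 2. Genes of lowest GC content had a median log2 deviation of -0.435 in this library and -0.413 in untreated replicate 2. The IL-27 libraries stood at -0.00585 to 0.0109 around their own group mean. The source of the shared pattern was not tested. The log2 difference, IL-27 minus IL-4, was 6.12 for Gbp2 (edgeR adjusted p = 3.84e-09) and 3.98 for Cd86. It was -7.68 for Cish, a SOCS-family gene known to respond to IL-4, and -3.42 for Mki67. Socs1, although higher with IL-27 than in untreated cells, was lower than with IL-4 at a log2 difference of -1.95 (edgeR adjusted p = 3.06e-05). Rtp4, at 1.85, 1.99 and 2.11 CPM with IL-27 and 1.44, 1.70 and 1.07 CPM with IL-4, was not called between the cytokines (edgeR adjusted p = 0.112). Slc40a1 had a log2 difference of 0.47 (edgeR adjusted p = 0.027).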

How the data were processed

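PolyA RNA from 9 mouse macrophage libraries (3 untreated, 3 IL-27, 3 IL-4) was sequenced. The deposited counts are whole reads per gene, and the submitters' processing notes name fastp, HISAT2, HTSeq and GRCm39 with no versions or roles. The deposited FPKM values are the authors' counts corrected for gene length and depth: dividing one table by the other gave lengths whole within 1e-06 bases for 100% of genes. Strand setting, annotation and handling of shared reads are not stated in the labels. FPKM values were used only to rank genes with high levels.

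Counts of all 9 libraries were fitted in edgeR 4.0.16 (R 4.3.3) by the quasi-likelihood test with a group term, TMM factors of 0.918 to 1.06 and filterByExpr at a minimum count of 10. Genes were called at a Benjamini-Hochberg adjusted p under 0.05, and standard errors were taken from log2 fold change and F. The dispersion shared by all genes was 0.0272, which is a variation of 0.165 of the mean between replicate libraries. On simulated data for this comparison (12307 genes), 4%, 32%, 84% and 98% of 50 genes each changed 1.25, 1.5, 2 and 4-fold were recovered. The simulation gave 115 calls, 6 of them false, against 3670 calls in the data, and held no GC-linked shift of a library. Recovery in the data may therefore differ. Low counts carry exact 95% intervals and a floor of 3 counts per group, for counting error only. Promoter windows are RefSeq's for GRCm38.p6. Alternatives were DESeq2 1.42.0, other scalings and filters, fewer libraries, a replicate block, GC offsets and subtraction of an IL-4 share, the last added after seeing the data. Named genes were the 20 largest changes each way (mean at least 5 CPM, no overlap), the same outside lists, up to 5 members per list by adjusted p, low-count inductions, the 8 highest-FPKM genes each way at least 2-fold changed, and a fixed panel; any other gene named was picked once its values were known. Members and lists were chosen with earlier results of these data known. Nos2, of the panel, had too few reads to be tested. A few genes meeting these criteria have been left out of the text.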

Additional observations from a re-analysis of the deposited data

How the results depend on the processing

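The number of genes called was 3670 and ranged from 2899 (replicate block) to 5161 (GC offsets) over settings that kept all libraries, and from 2580 to 4618 when 1 library was left out. DESeq2 called 4429 genes, the RLE scaling 3686 and scaling by totals 3782, where 41.3% of calls were higher against 48.1% in the reported fit. No gene called both in the reported fit and under any of the 18 alternatives changed direction. The replicate block kept 78.5% of the calls. Deviations of untreated and IL-27 libraries of the same number correlated at 0.00716, 0.0613 and 0.0494 over 9553 genes. Those of different numbers correlated at -0.0822 to 0.0735. Replicate 2 stood apart among the untreated libraries, so these values cannot decide whether replicate numbers pair the samples. The count of chemoattractant receptors that were lower was 6 to 12 with 1 library left out, and that of cytokines and growth factors that were lower 5 to 9; the cause was not tested. Of 294 called genes named here, 276 kept the call under all alternatives. Among uncalled genes the log2 difference changed sign for Il6st (0.0028 with the IL-4 share subtracted, -0.0424 to 0.02 with 1 library left out), Mrc1 (-0.0956 with GC offsets, -0.0078 to 0.0765), Isg15 (-0.0864 to 0.2424), Jak2 (-0.0655 to 0.2211) and Oas1a (-0.0714 to 0.1734). Tyk2 was called in 6 alternatives and Cdkn1a and Myc in 1 each. Genes with few counts, such as Il11, Retnla and Serpina3f, are limited by counting error, and changes under 2-fold by the spread between 3 libraries.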
